A study of Homo sapiens with 6 samples.

Results

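Glutathione and thioredoxin redox enzymes were examined in a pooled CRISPR knockout screen in the human cell line HAP1, which is near-haploid and of leukaemic origin. The set was defined by gene symbol as GPX4, GCLC, GCLM, GSS, GSR, TXNRD1 and TXNRD2. Of these 7 genes, 5 had guides in the count table, and TXNRD1 and TXNRD2 were not analysed here. The 5 genes are among 7093 genes in the table. Each had 10 guides, and all 50 guides passed the filter of a mean library count of 30 or more. The samples were 2 of SETD2-mutant HAP1 cells and 2 of parental HAP1 cells, each grown for 12 doublings under puromycin after transduction at a multiplicity of infection of 0.7, and 2 samples labelled as the guide library. SETD2 is the histone methyltransferase that trimethylates H3K36. The number of SETD2-mutant clones is not given in the labels. The replicates of a line were split after 1 transduction, so the p-values here reflect no more than the spread of these samples. How the library samples were taken is not given either.

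Glutathione is a cysteine-containing tripeptide that cells use as their main soluble antioxidant. Glutamate-cysteine ligase makes its precursor and consists of the catalytic subunit GCLC and the modifier subunit GCLM. GSS, glutathione synthetase, adds glycine, and GSR, glutathione reductase, returns oxidised glutathione to its reduced form with NADPH. GPX4 is a selenoprotein that uses glutathione to reduce lipid hydroperoxides in membranes, and its loss can lead to ferroptosis, a form of cell death driven by lipid peroxidation. TXNRD1 and TXNRD2 are the cytosolic and mitochondrial thioredoxin reductases. On the GRCh38 assembly GPX4 lies on chromosome 19 (1103994 to 1106779), GCLC on chromosome 6 (53497341 to 53545101), GCLM on chromosome 1 (93885199 to 93909430) and GSS on chromosome 20 (34928432 to 34956027). The sequences and cut sites of the guides were not analysed here.

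Total counts ranged from 25082426 in SETD2-mutant replicate 1 to 38428425 in library replicate 1, and median counts per guide from 284 to 466. Counts of the 50 guides ranged from 31 to 1413 in SETD2-mutant samples, from 120 to 1222 in parental samples and from 144 to 1130 in library samples, so none was at 0. Guide abundance is given in CPM, a count divided by the TMM-adjusted library size. For the 10 guides of a gene summed in 1 sample, the 95% Wilson interval reached at most 4.17% from the value, and it covers counting error only, since PCR reads are not independent molecules. Chi-square per degree of freedom compares the differences of guides between replicates with counting error. It was 14.1 in parental, 12.9 in SETD2-mutant and 1.37 in library samples, so replicate scatter in the cell samples was well above counting error. The change of a gene is the mean of the log2 changes of its guides, with the standard error (SE) over guides. Each guide was tested with edgeR, and robust rank aggregation (RRA) turned the guide ranks into 1 p-value per gene and direction. Genes were called where the adjusted p was below 0.05. A depleted gene is one whose guides became rarer, relative to all guides. SETD2 itself, the gene mutated in 1 of the lines, was not called in SETD2-mutant cells against library, at −0.61 (SE 0.481, edgeR-RRA adjusted p = 0.739). Its guides there were split, 5 down and 5 up, with a median of −0.12 and a lowest guide at −3.54. Limma on gene means, another gene test, called SETD2 depleted there (−0.61, adjusted p = 0.000158), as it did 38% of all genes. In parental cells it was depleted, at −1.12 (SE 0.308, edgeR-RRA adjusted p = 0.000298). Set against parental cells, SETD2-mutant cells had SETD2 guides enriched by 0.50 (SE 0.216, edgeR-RRA adjusted p = 0.00624), a call lost without SETD2-mutant replicate 2 (0.47, edgeR-RRA adjusted p = 0.0785).

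No member of the set was called in any of the 3 comparisons by edgeR and RRA. The farthest from 0 between the lines were GPX4, with fewer guide counts in SETD2-mutant than in parental cells, and GCLM, with more. GCLC, GSS and GSR lay near 0 between the lines.

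GPX4 guides summed to 91.7 and 91.4 CPM in SETD2-mutant cells, against 119 and 125 CPM in parental cells and 134 and 139 CPM in the library. Both SETD2-mutant values were below both parental values, and both parental values were below both library values. By gene means, 38.8% of all genes had both SETD2-mutant samples below both parental samples. The share of all genes with a given order against library was not counted, here or for the members below. The mean change in SETD2-mutant against parental was −0.52 (SE 0.216, 7 of 10 guides down), or 0.696-fold, with an RRA p of 0.00356 before adjustment and an edgeR-RRA adjusted p of 0.168. Of all 7090 genes tested, 6.53% had a lower mean change. By sample, the mean log2 change of GPX4 guides from library was −0.69 and −0.62 in SETD2-mutant cells, and −0.17 and −0.09 in parental cells. Against library, GPX4 stood at −0.65 (SE 0.295) in SETD2-mutant cells, with an edgeR-RRA adjusted p of 0.423. In parental cells it stood at −0.12 (SE 0.121), with an edgeR-RRA adjusted p of 1.

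The 10 GPX4 guides lay in 2 ranges between the lines. Numbered by their identifiers, guides 2, 5, 6, 8 and 9 had changes of −1.31 to −0.98 in SETD2-mutant against parental, and the other 5 guides had changes of −0.07 to 0.48. Guide 9 had counts of 95 and 96 in SETD2-mutant cells, 304 and 242 in parental cells and 513 and 451 in the library. Guide 2 had counts of 213 and 224 in SETD2-mutant cells, 688 and 646 in parental cells and 805 and 709 in the library. Guide 7, in contrast, had counts of 331 and 325 in SETD2-mutant cells, 271 and 307 in parental cells and 253 and 246 in the library. The guides of the lower range averaged −1.42 in SETD2-mutant and −0.27 in parental cells against library, and those of the upper range 0.13 and 0.03. These ranges were drawn after the values were seen and carry no test. Between the lines the standard deviation (SD) over the 10 GPX4 guides was 0.68, and 69.5% of all genes had a lower SD. Among the 6952 genes with 10 guides kept, 145 (2.09%) had 5 or more guides below −0.9 between the lines, as GPX4 had. This cut and number of guides were also chosen after the GPX4 values were seen. Tested one by one with edgeR, 4 GPX4 guides were lower in SETD2-mutant than in parental cells at an adjusted p below 0.05, namely guides 2, 5, 6 and 9, and 0 were higher. Over all guides, edgeR called 12.8% lower and 11.5% higher. Against library, edgeR called 6 GPX4 guides lower and 1 higher in SETD2-mutant cells, where it called 23.7% and 22.2% of all guides. In parental cells it called 3 lower and 0 higher, where it called 21.1% and 18.9% of all guides.

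GCLC, the catalytic subunit of glutamate-cysteine ligase, had summed guides of 145 and 139 CPM in SETD2-mutant cells, 141 and 172 CPM in parental cells and 179 and 182 CPM in the library. The lines overlapped, and both lay below the library, an order whose share among all genes was not counted. The change in SETD2-mutant against parental was 0.02 (SE 0.238, 6 of 10 guides down, edgeR-RRA adjusted p = 1), a value that took the opposite sign when samples were scaled on the guides labelled dummyguide (−0.19). Against library, GCLC stood at −0.38 (SE 0.168) in SETD2-mutant and −0.40 (SE 0.263) in parental cells, with edgeR-RRA adjusted p = 1 and 0.725. The parental value was −0.26 without parental replicate 1 and −0.57 without parental replicate 2. Its guides spread in both directions, with an SD between the lines of 0.75, and 77.3% of all genes had a lower SD. Guide 2 had counts of 248 and 402 in SETD2-mutant cells and 120 and 145 in parental cells, a change of 1.54, while guide 6 had counts of 272 and 381 in SETD2-mutant cells and 817 and 1006 in parental cells, a change of −1.22. Of its 10 guides, edgeR called 2 lower and 2 higher between the lines, against 12.8% and 11.5% of all guides.

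GCLM, the modifier subunit of the same ligase, had values on the other side. Its guides summed to 212 and 210 CPM in SETD2-mutant cells, against 171 and 166 CPM in parental cells and 150.2 and 149.6 CPM in the library. Both SETD2-mutant sums lay above both parental sums, and these above both library sums. The share of all genes with this order was not counted. By gene means, 26.9% of all genes had both SETD2-mutant samples above both parental samples. The change in SETD2-mutant against parental was 0.33 (SE 0.076, 9 of 10 guides up), or 1.26-fold, with an RRA p of 0.0199 before adjustment and an edgeR-RRA adjusted p of 0.479. The changes of single GCLM guides lay between −0.11 and 0.71, with an SD over guides of 0.24, against a median SD of 0.56 over all genes. Both SETD2-mutant samples were above both parental samples for 9 of its 10 guides, as for 9 or more guides in 39 (0.561%) of the 6952 genes with 10 guides, a description chosen after the values were seen. Over all guides of the table, 29.4% met that order and 29.8% the opposite one. Guide 10 had the highest change, 0.71, with counts of 594 and 808 in SETD2-mutant cells, 592 and 449 in parental cells and 632 and 569 in the library. Against library GCLM stood at 0.43 (SE 0.184) in SETD2-mutant and 0.10 (SE 0.174) in parental cells, with edgeR-RRA adjusted p = 0.163 and 0.570. Dummyguide scaling turned these values to −0.50 in SETD2-mutant and −0.62 in parental cells, so their sign depends on the scaling. Guide 3 was the 1 GCLM guide below library in SETD2-mutant cells and had counts of 162 and 224 in SETD2-mutant cells, 230 and 191 in parental cells and 502 and 455 in the library.

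GSS, which completes glutathione, had summed guides of 132 and 129 CPM in SETD2-mutant cells, 129 and 131 CPM in parental cells and 147 and 149 CPM in the library. The lines overlapped, and both lay below the library, an order whose share among all genes was not counted. The change in SETD2-mutant against parental was −0.04 (SE 0.126, edgeR-RRA adjusted p = 1). Against library it was −0.26 (SE 0.187) in SETD2-mutant and −0.22 (SE 0.122) in parental cells, and the adjusted p was 1 for both by edgeR and RRA. One GSS guide stood apart from the rest. Guide 4 had counts of 102 and 165 in SETD2-mutant cells, 366 and 206 in parental cells and 607 and 525 in the library, a change of −1.77 in SETD2-mutant and −0.96 in parental cells against library.

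GSR, which regenerates reduced glutathione, had summed guides of 193 and 196 CPM in SETD2-mutant cells, 181 and 188 CPM in parental cells and 134 and 137 CPM in the library. Both lines lay above the library. Against library, edgeR on summed counts called 41.7% of all genes enriched in SETD2-mutant and 42.3% in parental cells. The SETD2-mutant sums lay above the parental sums. How many of all genes had these orders of sums was not counted. The mean over guides went the other way, with a change in SETD2-mutant against parental of −0.05 (SE 0.141, edgeR-RRA adjusted p = 1). Against library it was 0.34 (SE 0.206) in SETD2-mutant and 0.38 (SE 0.137) in parental cells, with edgeR-RRA adjusted p = 0.409 and 0.176. With dummyguide scaling the same changes were −0.60 in SETD2-mutant and −0.34 in parental cells. With TMM scaling 7 of 10 GSR guides were above library in each line. Guide 5 had counts of 1157 and 1413 in SETD2-mutant cells, 1081 and 983 in parental cells and 708 and 684 in the library. Guide 4 had counts of 156 and 211 in SETD2-mutant cells, 427 and 325 in parental cells and 419 and 405 in the library, a change of −0.75 in SETD2-mutant against parental.

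**Figure D1:**
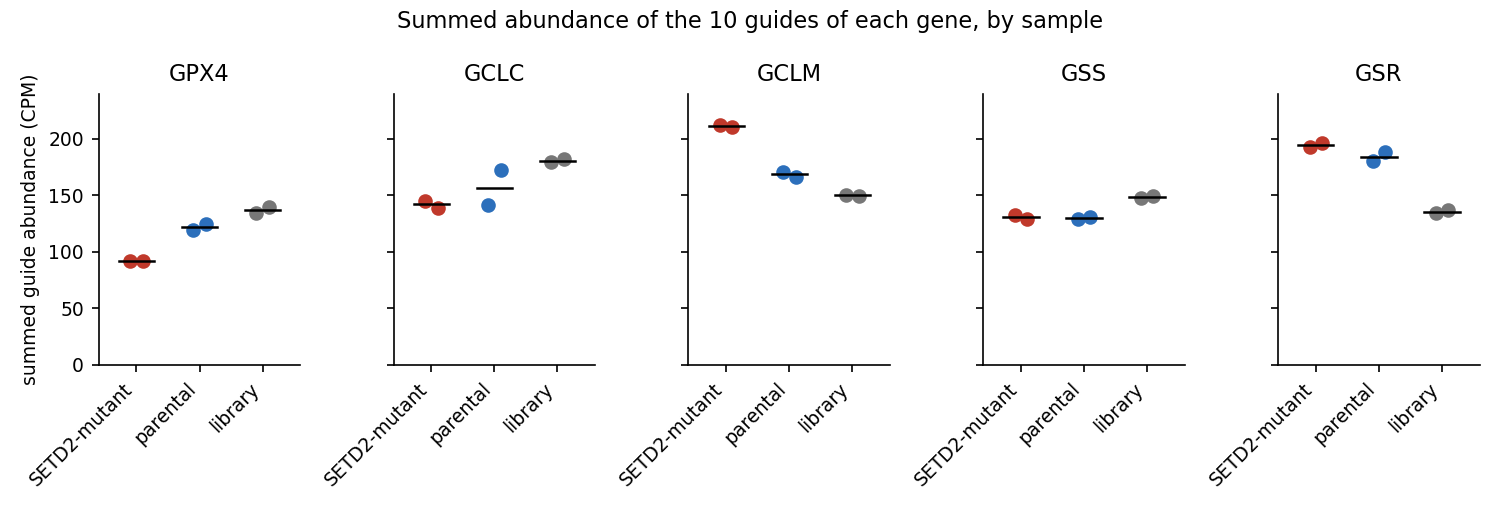
Summed abundance of the 10 guides of each gene in CPM (y axis, from 0) in each sample of SETD2-mutant cells, parental cells and the library, with points for the 2 samples and a line for their mean. GPX4 was lowest in SETD2-mutant cells (91.7 and 91.4 CPM), and the 2 lines overlapped for GCLC and GSS. GCLM (212 and 210 CPM) and GSR (193 and 196 CPM) were highest in SETD2-mutant cells. For GSR the mean over guides had the opposite order between the lines.

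**Figure D2:**
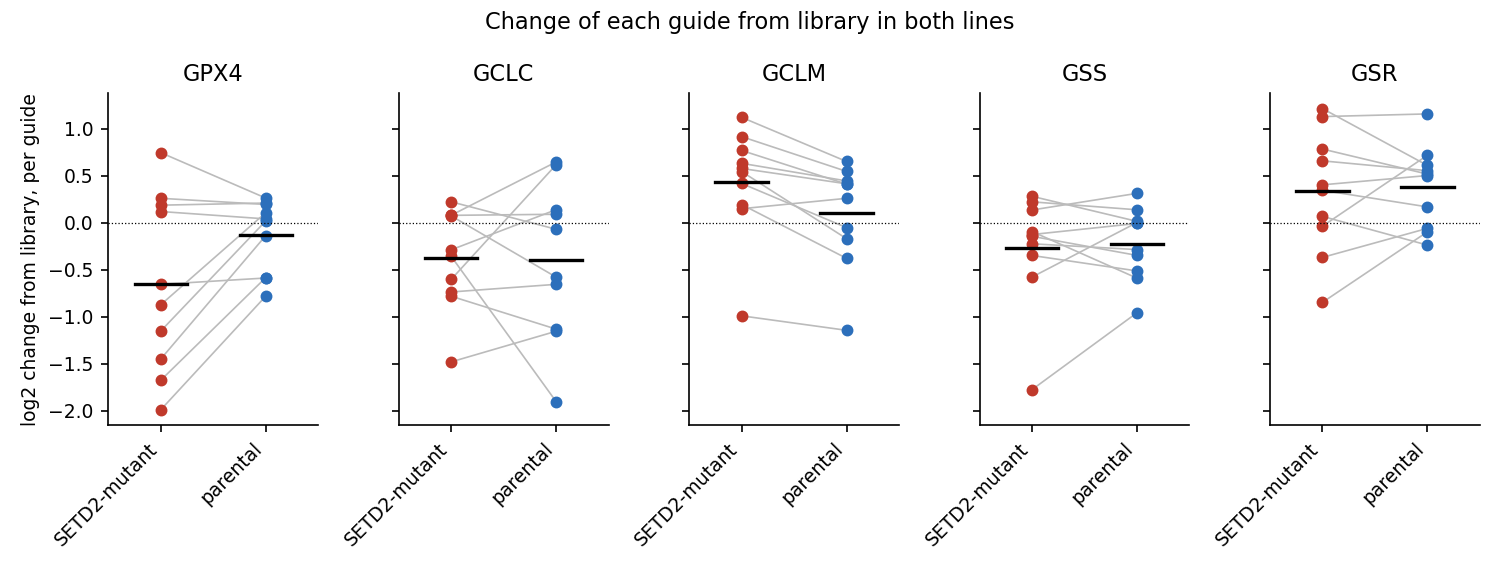
Log2 change of each guide from library (y axis) in SETD2-mutant cells and parental cells, with a grey line joining the 2 values of a guide and a black bar for the mean over 10 guides. The GPX4 guides spread from −1.99 to 0.75 in SETD2-mutant cells and from −0.78 to 0.26 in parental cells, while 9 of 10 GCLM guides were higher in SETD2-mutant cells. With dummyguide scaling the GCLM and GSR means against library were below 0.

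The comparison of SETD2-mutant with parental cells asks whether losing a gene is tolerated differently in the SETD2-mutant line. In it, SETD2 mutation cannot be told apart from other differences between the lines. By edgeR and RRA 0 of 5 members were depleted and 0 enriched, where 1.28% and 1.03% of all genes were. At an RRA p below 0.05 before adjustment, 1 member was depleted (GPX4) and 1 enriched (GCLM), against 7.53% and 6.84% of all genes. Both other gene tests called these 2 genes. In limma on gene means the adjusted p was 0.00161 for GPX4 and 0.00469 for GCLM, and in edgeR on summed counts it was 0.000829 and 0.00075. Those tests also called 22% and 21.7% of all genes depleted and 12.6% and 19.3% enriched. The median change of the 5 members was −0.04 and that of all genes −0.04. Counted by gene means, both SETD2-mutant samples were below both parental samples for 2 of 5 members, GPX4 and GSR (for GSR the summed CPM had the opposite order), and above them for 1, GCLM, against 38.8% and 26.9% of all genes. Uncalled genes within 5 Mb of each member had median changes of −0.09 to 0.00 between the lines, and those around GPX4, 52 in number, had a median of −0.06.

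**Figure D3:**
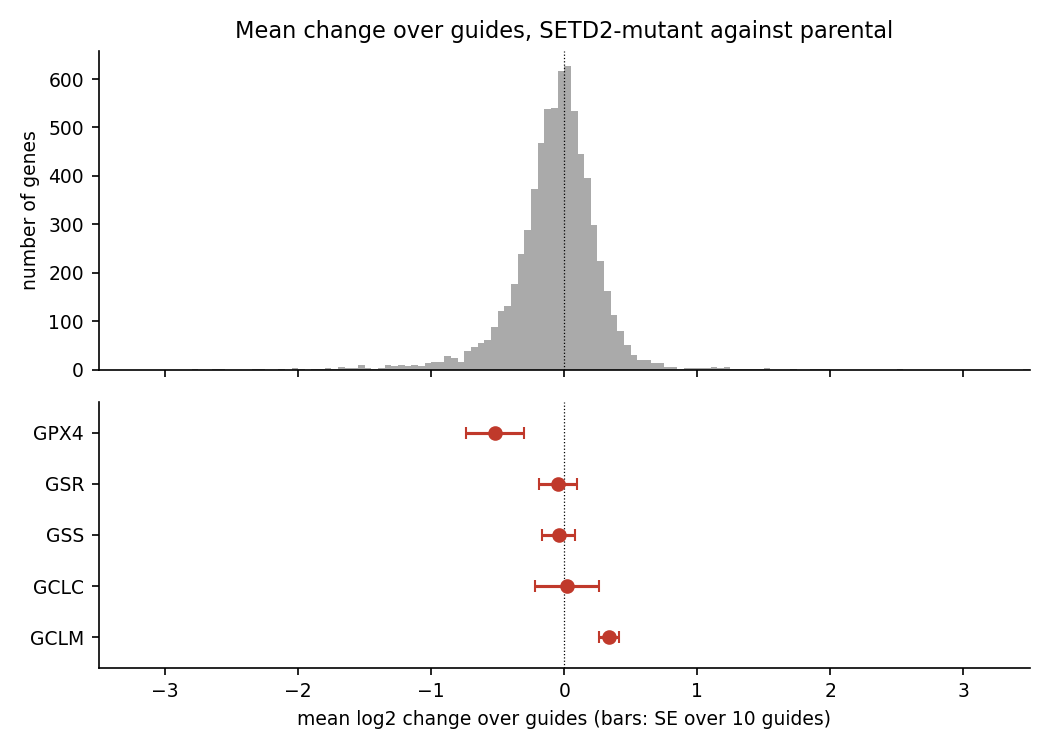
Upper panel, the number of genes by mean log2 change over guides in SETD2-mutant against parental, and lower panel, the mean change of the 5 members with bars for the SE over 10 guides. GPX4 at −0.52 and GCLM at 0.33 lay toward the edges of the distribution, whose 5th and 95th percentiles were −0.60 and 0.37, and the other 3 lay between −0.05 and 0.02.

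SETD2-mutant against library and parental against library address which losses each line carried less well over the screen. In SETD2-mutant cells 0 of 5 members were depleted and 0 enriched by edgeR and RRA, against 9.04% and 1.11% of all genes. In parental cells the counts were 0 and 0, against 9.9% and 1.11%. At an RRA p below 0.05 before adjustment, 0 members were depleted in SETD2-mutant and 0 in parental cells, against 12% and 12.1% of all genes. GCLM and GSR were the 2 members enriched at that level in SETD2-mutant cells, and GSR the 1 in parental cells, against 10.3% and 9.38% of all genes. The members' medians were −0.26 in SETD2-mutant and −0.12 in parental cells, against −0.05 and −0.01 for all genes. Scaling on the dummyguide guides moved the median of all genes by −0.21 between the lines, and by −0.93 in SETD2-mutant and −0.72 in parental cells against library, so the changes above are relative to other genes. In SETD2-mutant cells, limma on gene means and edgeR on summed counts both called GPX4, GCLC and GSS depleted and GCLM and GSR enriched. Limma called 38% and 23.8% of all genes there, and summed counts 25.7% and 41.7%. In parental cells limma called GCLC and GSS depleted and GSR enriched, against 31.3% and 23.6% of all genes. Summed counts called GPX4 and GSS depleted and GCLM and GSR enriched there, against 23.4% and 42.3% of all genes. A member not called is not shown to be dispensable at this depth and with 2 samples a group.

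Genes that work beside these enzymes were followed as 8 lists with 126 genes, of which 89 were measured. In SETD2-mutant against parental 3 of the 89 were depleted and 6 enriched by edgeR and RRA, or 3.37% and 6.74%, against 1.28% and 1.03% of all genes. The depleted count was 1 without parental replicate 2. The lists were drawn up with earlier results of these data known, so these shares are not independent evidence. The called genes lay in 4 of the lists.

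Among the genes of NADPH supply, which gives GSR its reducing power, 0 of 13 were depleted and 4 were enriched between the lines. MTHFD1, a folate enzyme that can form NADPH, was enriched between the lines by 1.54 (SE 0.311), with an edgeR-RRA adjusted p of 0.0016. Against library MTHFD1 was depleted in parental cells, at −2.50, and not called in SETD2-mutant cells, at −0.96. Fitting only the 2 groups compared called it depleted in SETD2-mutant cells (−0.97, edgeR-RRA adjusted p = 0.0046). Limma on gene means (adjusted p = 0.000199) and edgeR on summed counts (adjusted p = 2.59e-05) did so too. They called 38% and 25.7% of all genes depleted. TKT, the transketolase of the pentose phosphate pathway, was enriched by 1.44 (SE 0.299) and MTHFD2, a mitochondrial folate enzyme, by 0.70 (SE 0.175). The TKT call was lost without parental replicate 1 (edgeR-RRA adjusted p = 0.0548) or SETD2-mutant replicate 2 (edgeR-RRA adjusted p = 0.0887). The MTHFD2 call was lost without either parental sample or without SETD2-mutant replicate 1 (edgeR-RRA adjusted p = 0.183, 0.0596 and 0.103). PGD, which also forms NADPH in the pentose phosphate pathway, had a change of −1.19 (SE 0.307) and was not called. Against library, 3 of 13 were depleted in SETD2-mutant cells, PGD at −3.93, PGLS at −2.17 and TKT at −2.06, where 9.04% of all genes were depleted. In parental cells 7 of 13 were depleted, among them TKT at −3.50, where 9.9% of all genes were. Of these, MTHFD2, at −0.94, was not called when any 1 of the 4 cell line samples was left out. PGD, PGLS and MTHFD2 are named after their values were seen.

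Of 7 genes of the KEAP1 and NRF2 pathway, which controls transcription of glutathione genes, 2 were depleted between the lines. KEAP1, the adaptor that marks NRF2 for degradation, was depleted, at −1.48 (SE 0.305, 10 of 10 guides down, edgeR-RRA adjusted p = 1.17e-05), with −1.74 in SETD2-mutant and −0.26 in parental cells against library. CUL3, the cullin that works with KEAP1, was depleted, at −1.03 (SE 0.287, 9 of 10 guides down, edgeR-RRA adjusted p = 0.0218), a call lost without parental replicate 2 (edgeR-RRA adjusted p = 0.0516) or SETD2-mutant replicate 1 (edgeR-RRA adjusted p = 0.0721). NFE2L2, which encodes NRF2, was not called, at −0.03 (SE 0.157), and it is named after its value was seen. Against library RBX1 was depleted in both lines, at −3.65 in SETD2-mutant and −3.33 in parental cells, and KEAP1 in SETD2-mutant cells. RBX1, the RING subunit of cullin ligases, was chosen after its values were seen.

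Of 14 genes of lipid peroxidation and ferroptosis, 0 were depleted and 2 enriched between the lines. DHODH, a mitochondrial enzyme of pyrimidine synthesis that can also reduce ubiquinone, was enriched by 1.74 (SE 0.0977), with 0.14 in SETD2-mutant and −1.59 in parental cells against library. The DHODH value in SETD2-mutant cells was −0.79 with dummyguide scaling. TFRC, the transferrin receptor that brings iron into cells, was enriched by 1.03 (SE 0.46), and it was depleted in both lines against library, at −2.28 in SETD2-mutant and −3.31 in parental cells. Its call between the lines was lost without parental replicate 1, SETD2-mutant replicate 1 or SETD2-mutant replicate 2 (edgeR-RRA adjusted p = 0.148, 0.424 and 0.317). ACSL4, which supplies peroxidisable fatty acids, stood at −0.12 (SE 0.121), and AIFM2, also called FSP1, which keeps ubiquinone reduced, at −0.09 (SE 0.109), and both are named after their values were seen.

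Of 4 genes that remove superoxide and hydrogen peroxide, 1 was depleted between the lines. SOD2, the mitochondrial superoxide dismutase, was depleted, at −1.75 (SE 0.649, 8 of 10 guides down, edgeR-RRA adjusted p = 0.00653), a call lost without parental replicate 1 (edgeR-RRA adjusted p = 0.0562) or parental replicate 2 (edgeR-RRA adjusted p = 0.0516). Against library SOD2 was depleted, at −3.93 in SETD2-mutant and −2.17 in parental cells. SOD1, the cytosolic enzyme, was depleted, at −2.40 in SETD2-mutant and −2.32 in parental cells, and was chosen after its values were seen.

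The other 4 lists had 0 genes called between the lines by edgeR and RRA. These were 32 other glutathione enzymes, 9 genes of the thioredoxin and peroxiredoxin system, 9 of cysteine supply and 1 of selenoprotein synthesis. The gene farthest from 0 was GLRX, a glutaredoxin, at −0.44 (SE 0.214) among glutathione enzymes. It was TXN2, the mitochondrial thioredoxin, at −0.30 (SE 0.335) in the thioredoxin list and LRP8, a receptor that takes up selenoprotein P, at 0.17 (SE 0.306) for selenoproteins. In the cysteine list it was MAT2A, which makes S-adenosylmethionine, at −2.05 (SE 0.832, edgeR-RRA adjusted p = 0.613), and this value was −1.29 without parental replicate 1. MAT2A was called depleted at −1.16 in limma on gene means (adjusted p = 0.00137) and at −0.53 in edgeR on summed counts (adjusted p = 0.0036). Limma also called GLRX and TXN2 depleted, and summed counts called GLRX and LRP8 depleted, LRP8 at −0.47. Of all genes, limma called 22% and summed counts 21.7% depleted between the lines. TXN2 stood at −0.45 without SETD2-mutant replicate 1. LRP8 ranged from 0.10 to 0.26 with 1 sample left out, and it moved by over 1.5 times without either parental sample or without SETD2-mutant replicate 1. Against library, GSTT1, a glutathione transferase, was enriched in both lines, at 1.01 in SETD2-mutant and 0.74 in parental cells. Dummyguide scaling ended the parental call at 0.02 (edgeR-RRA adjusted p = 0.180). In SETD2-mutant cells the GSTT1 value was as low as 0.076 over the settings, with its call unchanged. MAT2A and AHCY, which hydrolyses S-adenosylhomocysteine, were depleted in both lines, with AHCY at −2.40 in SETD2-mutant and −2.02 in parental cells. AHCY and GSTT1 were chosen after their values were seen. The AHCY call in parental cells was lost without parental replicate 1 (edgeR-RRA adjusted p = 0.0713). The thioredoxin and selenoprotein lists had 0 genes called against library.

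**Figure D4:**
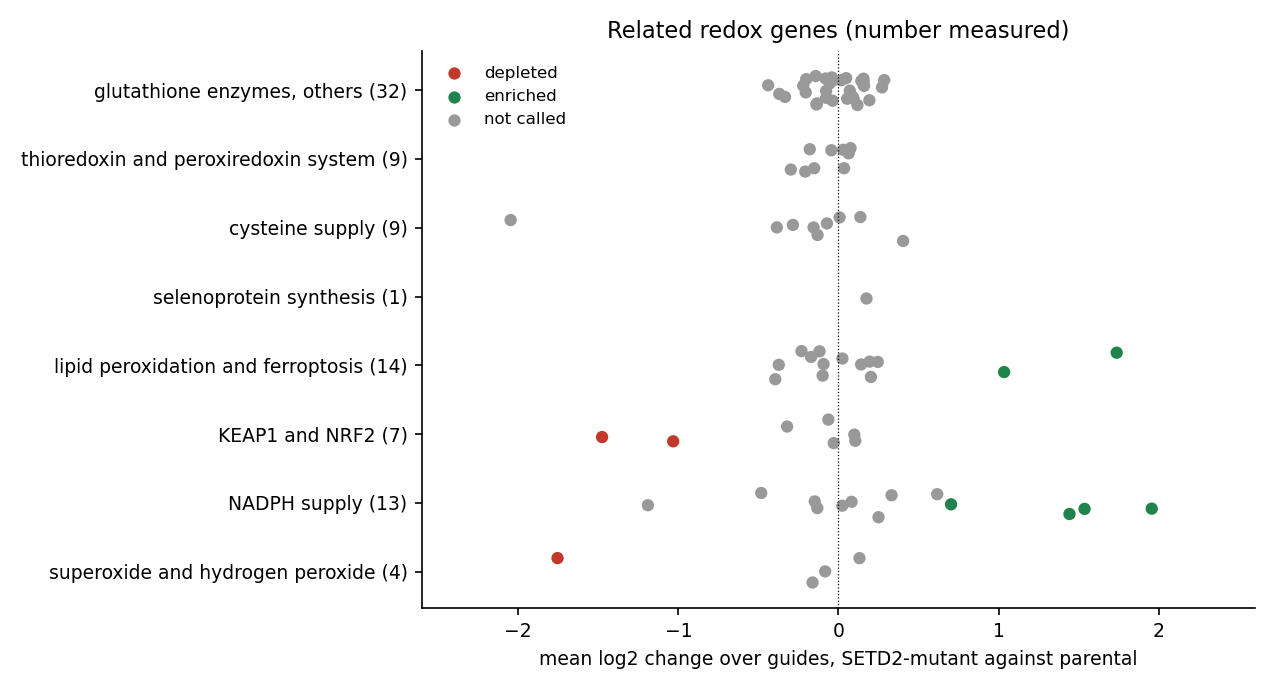
Mean log2 change over guides in SETD2-mutant against parental (x axis) for the 89 related genes, 1 point a gene, in the 8 lists named on the y axis with the number measured, and coloured by the call. The 6 enriched genes were in the NADPH and lipid peroxidation lists, the 3 depleted genes in the KEAP1 and superoxide lists, and the glutathione list held 32 uncalled genes.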

How the data were processed

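The authors deposited raw counts per guide, whole numbers with 1 column per sample. Integrated guides were PCR-amplified from extracted DNA and sequenced from 1 end for 75 bp, per the labels' protocols, and MAGeCK and hg38 are named in the submitters' processing notes without role or version. Of 71626 guides listed, 100 are labelled dummyguide, a label whose meaning is not given, and 71470 of the rest had a mean library count of 30 or more.

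Counts of the 6 samples were fitted by group with edgeR 4.0.16 in R 4.3.3 (TMM, glmQLFit robust, glmQLFTest). Guides were combined to 7090 genes with 3 or more guides by RRA with a rank share limit of 0.25 and its exact null distribution, one-sided, with Benjamini-Hochberg adjustment over all genes in each direction. Gene alternatives were limma 3.58.1 on log2 CPM averaged per gene (prior count 2) and edgeR on summed counts. DESeq2 1.42.0 gave other size factors and another guide test. The procedure was also run on simulated counts, with 1 fixed spread and changes set only in the SETD2-mutant samples. The real samples differ in both, so that run does not gauge the error of the calls here. Gene symbols and coordinates are from RefSeq's table of GRCh38.p14. Members and lists were chosen with earlier results of these data known. The rule for related genes names, for each list, up to 3 genes called between the lines with the largest change, or else the gene farthest from 0; others called against library were named after their values were seen. A related gene that the counts include is not reported here by name.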

Additional observations from a re-analysis of the deposited data

How the results depend on the processing

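No setting with an RRA test called a member, among 19 alternatives run between the lines and 18 run in each comparison against library. GPX4 stayed below 0 between the lines in every setting, at −0.73 to −0.42, with an adjusted p of 0.111 to 0.575 in the RRA settings, and GCLM above 0, at 0.12 to 0.36. Limma on gene means and edgeR on summed counts gave other counts of members. Between the lines each called 1 depleted and 1 enriched. In SETD2-mutant cells against library each called 3 depleted and 2 enriched. In parental cells limma called 2 depleted and 1 enriched and summed counts 2 and 2.

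For the related genes the same 2 tests called 16 and 22 depleted and 13 and 19 enriched between the lines, 32 and 25 depleted and 24 and 40 enriched in SETD2-mutant cells, and 24 and 23 depleted and 22 and 40 enriched in parental cells. Between the lines, limma called 22% of all genes depleted and 12.6% enriched, and summed counts 21.7% and 19.3%. Against library in SETD2-mutant cells the shares were 38% and 23.8% by limma and 25.7% and 41.7% by summed counts, and in parental cells 31.3% and 23.6% by limma and 23.4% and 42.3% by summed counts. Leaving out 1 sample at a time gave 1 to 3 depleted and 4 to 6 enriched related genes between the lines, 10 to 11 and 2 to 2 in SETD2-mutant cells and 12 to 15 and 1 to 2 in parental cells, and 0 members called throughout. Dummyguide scaling left 0 related genes enriched in parental cells, and ended the depleted calls of AHCY in both lines and of MAT2A and TFRC in SETD2-mutant cells against library. An RRA rank share limit of 0.1 ended the calls of TFRC between the lines, of TKT and AHCY in SETD2-mutant cells and of NADK, MTHFD2 and AHCY in parental cells. Fitting only the 2 groups compared ended those of TKT and SOD2 between the lines and of MTHFD2 in parental cells against library, and the DESeq2 test per guide ended that of TFRC between the lines.

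Changes near 0 took the other sign in some settings, and the cause was not tested. Between the lines GCLC was −0.19 with dummyguide scaling, −0.12 without parental replicate 1, −0.03 without SETD2-mutant replicate 1, −0.14 in summed counts and −0.046 as the median over guides, and leaving out 1 sample gave up to 0.19. GSS was −0.0535 to 0.00055 with 1 sample left out, the highest without parental replicate 1, 0.0081 in summed counts and 0.073 as the median, and GSR was −0.0731 to −0.0238 with 1 sample left out, 0.078 in summed counts and 0.038 as the median. LRP8 was −0.040 with dummyguide scaling and −0.47 in summed counts. In SETD2-mutant cells against library dummyguide scaling gave −0.50 for GCLM, −0.60 for GSR and −0.79 for DHODH. In parental cells GPX4 was 0.032 as the median, KEAP1 0.031 in summed counts, and with dummyguide scaling GCLM was −0.62, GSR −0.34 and CUL3 −0.60. At equal dropout of ribosomal protein genes in the lines, a setting added after the data were seen, GPX4 was −0.43 and GCLM 0.28.

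Replicate numbers pair nothing in the labels, and deviations of same-numbered samples had correlations of −0.0051 between the lines, −0.0025 between SETD2-mutant and library samples and −0.005 between parental and library samples. With the replicate block, GPX4 was −0.53 between the lines (adjusted p = 0.215 by edgeR and RRA), 0 members were called in each comparison, and 88 genes were depleted and 84 enriched among all genes between the lines, against 91 and 73 without it.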
